A study of Mus musculus with 6 samples.

Results

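The insulin-like growth factor 1 (IGF1) axis was read on the arrays through 14 probes for 9 genes: the ligand gene Igf1 (5 probes), the receptor gene Igf1r (1 probe) and the binding protein genes Igfbp1 to Igfbp7 (2 probes for Igfbp2 and 1 for each of the others). They were all the probes, of 55681 in all, that were not controls and whose gene name in the files was exactly one of those 9. The RNA came from satellite cells, which regenerate muscle fibres. Cells from the muscles of male C57BL/6 mice had been sorted as positive for integrin alpha7 and CD34 and negative for CD31, CD45, CD11b and Sca1. Young mice were 3, 2 and 3 months old (replicates 1, 2 and 3) and adult mice were 6 months old (3 replicates), with no genetic change or treatment named in the labels, and each sample was read on 1 single-colour array. The comparison asked how gene expression in resting muscle stem cells differs between these ages. The labels call the samples biological replicates without saying how many mice stood behind each, so the p-values measure the spread between these samples, which may be technical in part.

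IGF1 is a secreted hormone and local growth factor that binds a receptor tyrosine kinase, encoded by Igf1r, and acts in muscle on growth, myoblast proliferation and differentiation. The receptor signals through docking proteins of the Irs family to PI3-kinase and Akt. Most IGF in tissue and blood is held by binding proteins, which keep it from the receptor, carry it, or release it when proteases cut them. IGFBP7 is a more distant relative that binds IGFs weakly.

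The Igf1 probes did not all read alike, and whether their position accounts for it was not tested. Stretches of the probes are shown for Igf1, Igfbp1 and Igfbp3, the genes with a probe that passed the test. Each line gives 30 bases of a 60-base probe, 5′ to 3′ on the gene's strand: bases 31 to 60 of Igf1 probe 2 and bases 1 to 30 of the other probes. Capitals mark 20 of the 40 bases that Igf1 probes 2 and 3 have in common, so those probes are not independent measurements.
Igf1 probe 1: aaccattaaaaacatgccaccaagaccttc
Igf1 probe 2: CATTACAAAGATGGGCATTTcccccaatga
Igf1 probe 3: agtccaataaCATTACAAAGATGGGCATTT
Igf1 probe 4: agaaatgtaaatggaataagaggtcagctg
Igf1 probe 5: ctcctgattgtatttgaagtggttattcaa
Igfbp1: aaagttccgatgctgattgtgtaaccaaag
Igfbp3: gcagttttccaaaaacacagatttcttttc

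On mouse build mm9, as the files give it, the Igf1 probes lie on the plus strand of chromosome 10 at 87378456 to 87378515 (probe 1), 87393561 to 87393620 (probe 2), 87393581 to 87393640 (probe 3), 87395924 to 87395983 (probe 4) and 87399581 to 87399640 (probe 5). The files assign probe 1 to Igf1 transcript variant 2, and probes 2 to 5 to transcript variant 1 and 3 further Igf1 transcripts. Probe 1 begins 15105 bases before probe 2, while probes 2 to 5 lie within 6080 bases. Whether a probe lies in coding sequence or a UTR was not determined, since no mm9 annotation was used here.

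Igf1 signal fell with age at 4 of 5 probes, by 2.42-fold to 3.42-fold, and did not fall at the probe of transcript variant 2. Igfbp3, which encodes the main carrier of IGFs in blood, was 4.05-fold lower in adult cells. Igfbp1, whose product is a short-lived binding protein under insulin control in liver, read higher in adult from a very dim signal. The lower bound was 3.09-fold on the scale used here. With another background correction the log2 difference was 0.40 and did not pass (limma adjusted p = 0.108). The probes of Igf1r, Igfbp2, Igfbp4, Igfbp5, Igfbp6 and Igfbp7 did not pass the test. In all 6 of 14 probes passed (adjusted p below 0.05, limma), 5 lower and 1 higher in adult. Of the 6, 4 were probes of Igf1. With 1 probe a gene 3 of 9 genes passed, against 28.5% of all genes and 26.7% of those with a symbol. The 6 probes and the 3 genes include Igfbp1, which entered the test through the adult arrays alone. Its call is therefore no support for a difference. Over all 48412 probes tested, 23.4% passed, 6.39% lower and 17.1% higher, and among the 22106 whose gene has a symbol rather than a clone or predicted name 21.8% passed, 10.1% lower and 11.8% higher, with a median difference of -0.10. Counting members called without 1 array gave 1 without adult replicate 1 or 3, 3 without adult replicate 2, 4 without young replicate 1 and 6 without either of the other young replicates.

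All 14 probes passed the filter on low values, which asked for a signal well above background on at least 3 arrays. Igfbp1 passed it through the adult arrays alone, so it had to differ between the groups to be tested. Values are log2 signals relative to the 75th percentile of the array, given as adult against young, and each probe is compared with itself only, since probes differ in brightness.

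**Figure D1:**
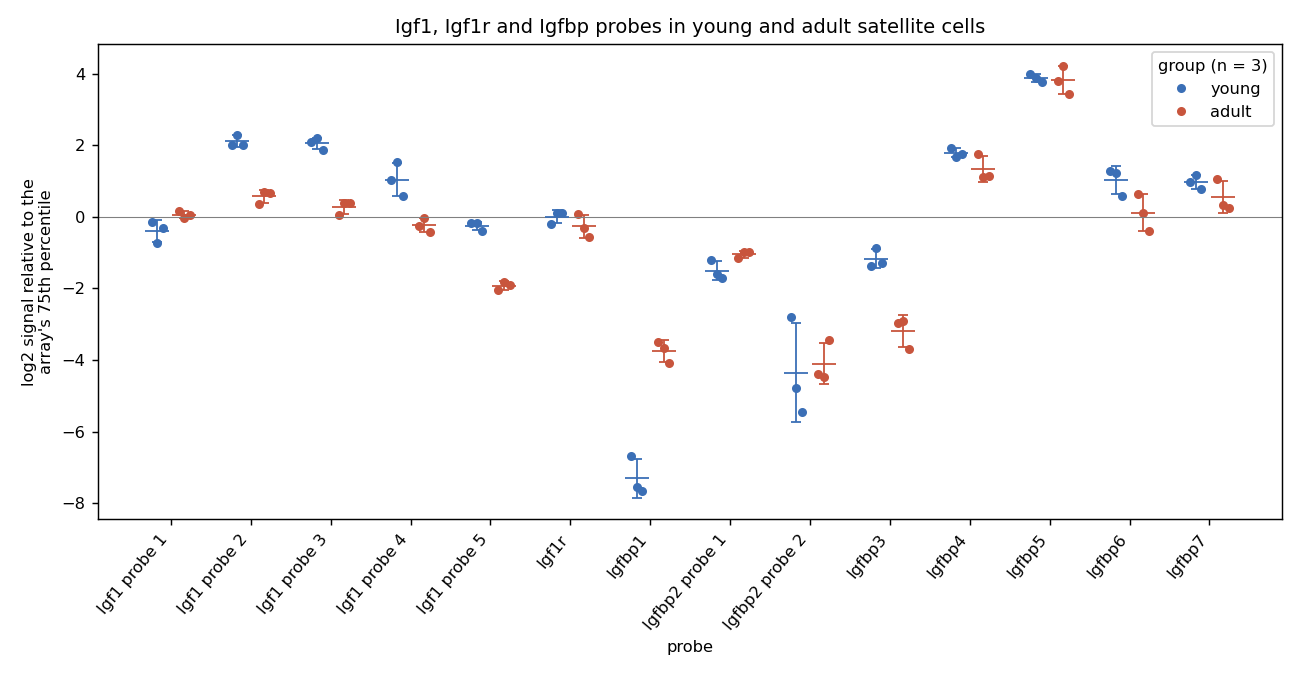
Log2 signal relative to the array's 75th percentile for each of the 14 probes, with 1 point per sample, bars at the mean and SD, and n = 3 young (blue) and 3 adult (red). The groups lie apart at Igf1 probes 1 to 5, Igfbp1, Igfbp2 probe 1 and Igfbp3, of which Igf1 probe 1 and Igfbp2 probe 1 did not pass the test. Levels can be compared within a probe but not between probes.

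Igf1 probe 2, the brightest Igf1 probe, read 2.02, 2.30 and 2.02 in young replicates 1, 2 and 3 and 0.36, 0.70 and 0.66 in adult replicates 1, 2 and 3. Every adult sample lay below every young one, and the gap between the groups was larger than the spread within either. The mean was 0.57 ± 0.18 in adult and 2.12 ± 0.16 in young (SD, n = 3 each), a 2.91-fold drop with age (-1.54 ± 0.20 SE on the log2 scale, limma adjusted p = 0.0178).

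Probe 3, which overlaps probe 2, read 2.09, 2.20 and 1.87 in young and 0.07, 0.39 and 0.39 in adult, a 3.42-fold drop (-1.77 ± 0.20 SE on the log2 scale, limma adjusted p = 0.0140). Probe 4 read 1.02, 1.53 and 0.59 in young and -0.24, -0.04 and -0.42 in adult (2.42-fold lower, -1.28 ± 0.29 SE, limma adjusted p = 0.0344). Probe 5 read -0.18, -0.18 and -0.39 in young and -2.04, -1.81 and -1.90 in adult (3.18-fold lower, -1.67 ± 0.19 SE, limma adjusted p = 0.0131). The groups did not overlap at any of these probes, and probe 4 had the widest spread among young samples (SD 0.47).

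Igf1 probe 1 went the other way in sign. It read -0.14, -0.72 and -0.30 in young and 0.16, -0.03 and 0.04 in adult. Adult samples lay above young ones without overlap, and the difference did not pass the test (0.45 ± 0.22 SE, 95% interval -0.10 to 0.99, limma adjusted p = 0.166). The sign of probe 1 turned to -0.09 with median scaling.

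The probes of Igf1 were then set against each other by their change, since a shift of a whole array cancels in a difference between probes of that array. Probe 1 changed by 1.99, 2.22, 1.73 and 2.12 log2 units more than probes 2, 3, 4 and 5, with no overlap between groups in any of those 4 differences. The exact two-sided permutation p was 0.1 for each, the smallest that 3 against 3 samples can give, and 0.22 after adjustment over the 11 pairs of probes compared. A limma comparison of each probe with the other probes of its gene, added after the data were seen, gave a difference of 2.01 for probe 1 (diffSplice, adjusted p = 2.9e-05 over 25167 probes of 8883 genes, of which 1.95% passed). That test treats probes as independent, which overlapping probes are not.

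**Figure D2:**
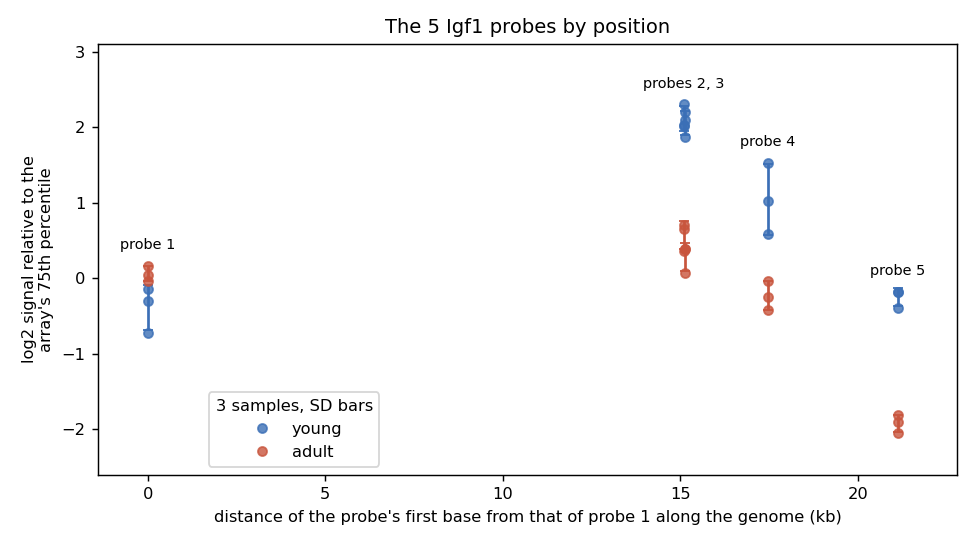
Log2 signal of the 5 Igf1 probes in the 3 young (blue) and 3 adult (red) samples, with SD bars, against the distance of each probe from probe 1 along the genome in kilobases. Adult samples lie below young ones at probes 2 to 5 and above them at probe 1.

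Not every Igf1 call held when an array was left out. Without adult replicate 1, or without adult replicate 3, none of the Igf1 probes passed with limma (adjusted p = 0.0502 to 0.0832 for probes 2 to 4 and just over 0.05 for probe 5 in the first case, 0.0549 to 0.0999 in the second), while their differences stayed between -1.83 and -1.18. Probes 3 and 5 passed without adult replicate 2, and probes 2, 3 and 5 without young replicate 1. Within the array rows of the slide, where the first held young replicates 1 and 2 with adult replicate 1, the difference of probe 2 was -1.80 in the first row and -1.34 in the second.

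Markers of other cell types were read beside the Igf1 and Igfbp results. The counts of markers called stand against 20.1% of all genes higher and 8.43% lower in adult. Among genes with a symbol the shares were 14.5% and 12.3%. In bulk samples such as these, fewer cells of a type and less RNA per cell cannot be told apart. Summed signals are multiples of the array's 75th percentile and are led by the brightest probe of a list, so each sum is also given without it.

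For fibro-adipogenic progenitors, connective tissue cells of muscle, 2 of 9 tested markers were lower in adult (limma; Col3a1 by 1.13 and Dpt by 0.92 log2 units) and 3 were higher (Pi16, Dpp4 and Clec3b), with a median difference of 0.12. The sum lay between 80.2 and 88.8 in young samples and between 35.1 and 49.7 in adult ones, and Col3a1 alone held 56.6% to 78.6% of it. Without Col3a1 the sum was 17.2 to 21.1 in young and 11.7 to 15.2 in adult. Pdgfra, a defining marker, was not well above background on any array. For tendon cells 1 of 5 markers was lower (limma; Scx by 1.06) and 0 were higher, with a median of -1.31 and sums of 4.71 to 10.4 in young and 1.98 to 4.40 in adult. Without Scx the tendon sums overlapped (from 0.83 upward in young, 0.32 to 2.22 in adult), and Tnmd was not well above background on any adult array.

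Macrophage and leukocyte markers differed upward at 10 of 10 genes, with a median of 0.52 against 0.31 over all genes. Most of these markers were dim, and dim probes rose in general. Of 4 classes of probes by mean level, the dimmest had a median of 1.38, with 27.3% called higher. The second dimmest had a median of 0.56, with 19.7% called higher. Whether the marker list differs from genes of like brightness was not tested. Of the 10 markers, 3 passed with limma: Tyrobp by 5.76, Adgre1 by 2.32 and Cd14 by 1.14. Tyrobp was well above background on the adult arrays alone, so it had to differ between the groups to be tested. Its fitted difference rests on young values that were not well above background. The sum of the 10 markers overlapped between groups (219.8 to 425.5 in young, 378.5 to 402.8 in adult) but was at least 95.7% Itgam, the gene of CD11b. Without Itgam it was 7.99 to 10.1 in young and 12.5 to 13.5 in adult. The sort was negative for CD11b and CD45, which mark these cells. Of 7 adipocyte markers, 4 were higher (limma; Adipoq by 3.13, Cfd by 2.24, Cidec by 1.28 and Retn by 0.81) and 0 lower. Their sums were 9.77 to 13.5 in young and 7.08 to 20.1 in adult, and without Fabp4 3.26 to 4.38 and 4.71 to 5.64. No array detected Lep, a defining adipocyte gene, well above background.

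Of 10 mural cell markers, 5 were higher (limma; Kcnj8 by 3.58, Abcc9 by 2.37, Pdgfrb by 2.13, Higd1b by 2.00 and Rgs5 by 1.87) and Acta2 was lower by 2.10. Over all genes 20.1% were higher and 8.43% lower. The mural sums overlapped (256.4 to 351.1 in young, 314.5 to 391.4 in adult), with 68.5% to 80.1% from Mcam, and did so without it (62.9 to 80.8 and 71.2 to 77.8). Of 10 endothelial markers 1 was higher (limma; Flt1) and 0 lower, with sums of 18.8 to 29.2 in young and 19.4 to 27.0 in adult. Without Tek the endothelial sums were 5.46 to 8.45 in young and 4.58 to 9.01 in adult. The part of these cell types in the Igf1, Igfbp1 and Igfbp3 results was not tested.

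Satellite cell identity was visible in both groups: all 12 listed markers, Pax7, Myf5 and Calcr among them, were tested and well above background. Of the 12, 5 were lower in adult (Vcam1, Itga7, Cdh15, Calcr and Megf10, limma) and 0 higher. Over all genes 8.43% were lower, and 12.3% over those with a symbol. The differences were negative at 11 of the 12, with a median of -0.36 against 0.31 over all genes and -0.05 over those with a symbol. The summed signal was 148.4 to 168.5 in young and 109.3 to 148.8 in adult. Without Chodl, the brightest, it was 71.2 to 83.1 in young and 43.3 to 68.6 in adult.

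Igf1r, whose product is the receptor of the axis, read -0.19, 0.11 and 0.11 in young and 0.08, -0.30 and -0.56 in adult. The groups overlapped, with the adult samples spread more widely (SD 0.32 against 0.17). The difference was -0.27 ± 0.24 SE with a 95% interval of -0.85 to 0.31 (limma adjusted p = 0.395). The probe lies on mm9 chromosome 7 from 75378461 to 75378520.

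Igfbp3 read -1.36, -0.87 and -1.28 in young and -2.97, -2.90 and -3.69 in adult. Each adult sample lay more than 1.5 log2 units below the lowest young one. The mean was -3.19 ± 0.44 in adult and -1.17 ± 0.26 in young (SD, n = 3 each), a log2 difference of -2.02 ± 0.29 SE (limma adjusted p = 0.0197). The probe was well above background on all arrays and lies on the minus strand of mm9 chromosome 11 from 7106594 to 7106653. In limma fits without young replicate 1 or without adult replicate 1, 2 or 3 its adjusted p was 0.0507 to 0.0600, with differences of -2.16 to -1.77. The difference was -1.86 within the first array row and -2.02 within the second.

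Igfbp1 read -6.68, -7.56 and -7.68 in young, where it was not well above background on any array, and -3.49, -3.67 and -4.10 in adult, where it was on all of them. The processed signal, before scaling, was 3.5 to 5.4 units in young and 31.1 to 48.8 in adult. The bound of 3.09-fold sets the adult mean against the lowest signal of any probe that counts as well above background on each young array. It is not a detection limit of the Igfbp1 probe itself and holds for these values only. The fitted difference was 3.55 ± 0.34 SE (limma adjusted p = 0.00976). With a normexp background correction, or with the series matrix values, the difference was 0.40 and did not pass (limma adjusted p = 0.108). Probes of like brightness rose in general: among the dimmest 25% of probes the median difference was 1.38 and 28% were called, 27.3% higher. The probe lies on mm9 chromosome 11 from 7102442 to 7102501.

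Igfbp1 and Igfbp3 are next to each other among protein-coding genes, as are Igfbp2 and Igfbp5, in the GRCm38.p6 gene table. Of the neighbours on chromosome 11, Igfbp3 was lower in adult. Igfbp1 read higher, but it was tested through the adult arrays alone and did not pass with normexp. Whether the neighbours moved in opposite directions therefore cannot be told from these probes. The neighbours on chromosome 1 did not pass the test.

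**Figure D3:**
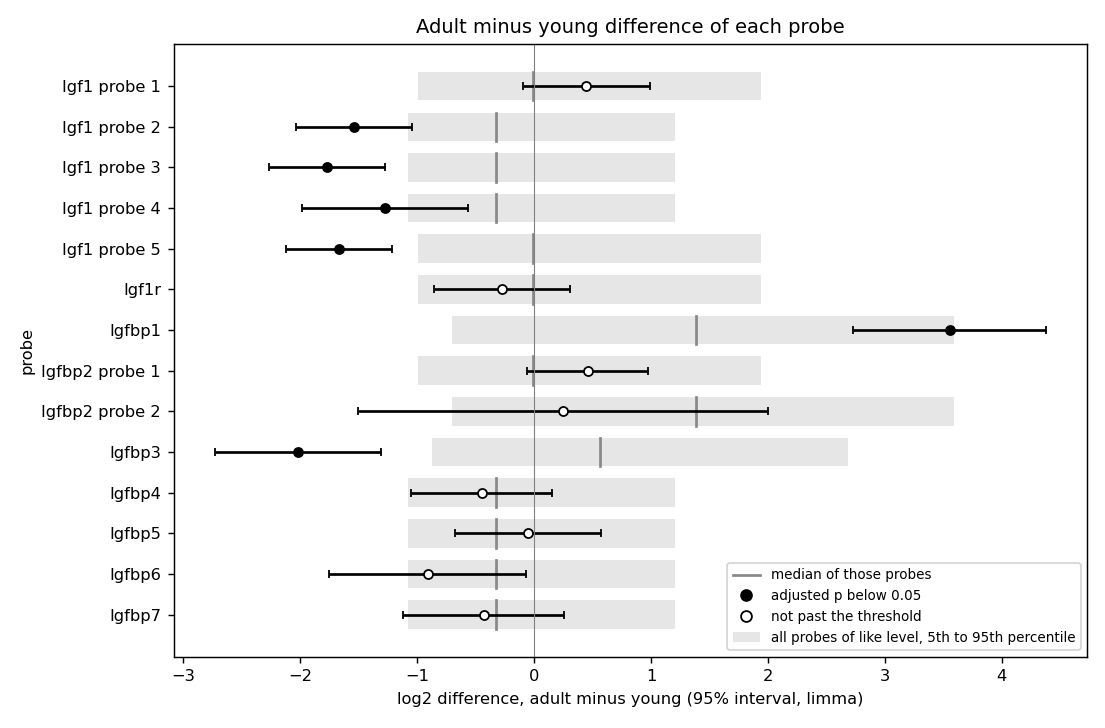
Log2 difference, adult minus young, of each probe with its 95% interval (limma, 3 samples a group); filled points passed at an adjusted p below 0.05. Grey bars span the 5th to 95th percentile, and grey lines the median, of all probes of like mean level. Igf1 probes 2 to 5 and Igfbp3 lie left of the bars, and Igfbp1 lies at the right end of its bar.

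The promoter sequences are shown for the 3 genes with a probe that passed, Igf1, Igfbp1 and Igfbp3. Igfbp1 among them was tested through the adult arrays alone. All 9 genes had a window in the RefSeq promoter table (GRCm38.p6), and the 250 bases before the gene start are printed 5′ to 3′ on the gene's strand. Capitals mark matches on either strand to CAAAACA, the core of the insulin response element that forkhead factors bind, to CAGCTG, an E-box that myogenic factors bind, and to forms of the TATA box spelled TATAAA or, in the Igfbp3 window, TATATA. No match overlapped another.
Igf1, chr10:87860861-87861110, plus strand: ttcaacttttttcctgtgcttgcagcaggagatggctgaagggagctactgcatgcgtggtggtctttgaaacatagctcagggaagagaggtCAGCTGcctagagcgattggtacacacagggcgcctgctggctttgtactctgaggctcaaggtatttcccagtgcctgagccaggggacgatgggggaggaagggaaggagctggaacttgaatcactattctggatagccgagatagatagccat
Igfbp1, chr11:7197537-7197786, plus strand: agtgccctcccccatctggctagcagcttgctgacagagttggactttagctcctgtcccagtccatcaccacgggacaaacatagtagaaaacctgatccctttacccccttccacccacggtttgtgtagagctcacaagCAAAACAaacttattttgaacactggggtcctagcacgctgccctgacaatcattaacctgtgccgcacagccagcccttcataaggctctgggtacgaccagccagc
Igfbp3, chr11:7213924-7214173, minus strand: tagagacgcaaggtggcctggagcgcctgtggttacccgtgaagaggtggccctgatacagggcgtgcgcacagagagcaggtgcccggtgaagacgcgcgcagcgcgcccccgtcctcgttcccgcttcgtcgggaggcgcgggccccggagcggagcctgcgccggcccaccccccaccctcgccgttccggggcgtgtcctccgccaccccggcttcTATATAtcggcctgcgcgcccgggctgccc

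The Igfbp1 window held CAAAACA at 108 bases before the gene start, a motif found in 5.56% of 32851 windows, and none of the other members' windows did. The Igf1 window held CAGCTG at 157 bases before the start (13% of windows), also alone among the members. The Igfbp3 window held TATATA at 30 bases before the start (5.25% of windows), and its GC content was 73.2% against a median of 52.4% over all windows. TATAAA (12.4% of windows) was found in the windows of Igfbp4 and Igfbp6 only. These are matches of letters, and no binding was measured.

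Among the other binding proteins, Igfbp6, which prefers IGF2, came nearest to the threshold. It read 1.27, 1.23 and 0.57 in young and 0.64, 0.11 and -0.39 in adult. Young replicate 3 lay below adult replicate 1, so the groups overlapped. The difference was -0.91 ± 0.35 SE (95% interval -1.75 to -0.07, limma adjusted p = 0.0946), and it passed with median scaling (-1.45, limma adjusted p = 0.0255) and with trend and robust moderation (limma adjusted p = 0.0469).

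Igfbp4, whose product restrains IGF until the protease PAPP-A cuts it, read 1.93, 1.69 and 1.75 in young and 1.77, 1.12 and 1.13 in adult. Adult replicate 1 lay among the young samples, and the difference was -0.45 ± 0.25 SE (95% interval -1.05 to 0.16, limma adjusted p = 0.202). Igfbp7 had the same layout, with 0.98, 1.17 and 0.79 in young and 1.06, 0.35 and 0.24 in adult (-0.43 ± 0.28 SE, 95% interval -1.12 to 0.25, limma adjusted p = 0.267). Both passed with median scaling (-0.99 and -0.97, limma adjusted p = 0.0374 and 0.0439), which moved the median of all probes from 0.29 to -0.25.

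Igfbp5, a binding protein of muscle that also binds extracellular matrix, read 3.98, 3.88 and 3.77 in young and 3.81, 4.23 and 3.43 in adult. The adult samples surrounded the young ones, and the difference was -0.05 ± 0.26 SE (95% interval -0.68 to 0.57, limma adjusted p = 0.883). Its sign was kept in 13 of 19 alternatives.

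Igfbp2, a binding protein abundant in fetal tissues, read -1.21, -1.58 and -1.71 in young and -1.16, -0.99 and -0.98 in adult at probe 1. Adult samples lay above young ones with a narrow gap between the nearest samples, and the difference was 0.46 ± 0.21 SE (limma adjusted p = 0.142). Probe 2 read -2.80, -4.79 and -5.46 in young, where it was well above background on 2 of 3 arrays, and -4.40, -4.47 and -3.44 in adult (0.25 ± 0.72 SE, limma adjusted p = 0.802). The sign of probe 1 turned to -0.08 with median scaling, and that of probe 2 was kept in 10 of 17 alternatives.

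The groups did not overlap at 8 of the 14 probes, against 52.6% of all probes.

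Beyond the members, 55 other genes of IGF signalling were listed, with 1 probe a gene (the brightest), and 50 could be tested. Of these, 8 were lower in adult, 3 were higher and 39 did not pass, against 28.5% of all 32109 genes called (8.43% lower, 20.1% higher) and 26.7% of those with a symbol (12.3% lower, 14.5% higher). Their median difference was -0.06, against 0.31 over all genes and -0.05 over those with a symbol. With limma, 5 passed without young replicate 2, 1 without young replicate 1 or 3, and 0 without adult replicate 1, 2 or 3 (13 to 17 at an unadjusted p under 0.05 in each case).

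Of 13 ligands, receptors and docking proteins, 1 was lower, 1 higher and 11 did not pass. Igf2r, a receptor that clears IGF2 by carrying it to lysosomes, read 3.06, 3.16 and 3.35 in young and 2.45, 2.70 and 2.32 in adult, without overlap and 1.63-fold down (-0.70 ± 0.20 SE on the log2 scale, limma adjusted p = 0.0448). It did not pass with quantile normalization (limma adjusted p = 0.126). Irs4, a docking protein, rose by 0.82 ± 0.19 SE (limma adjusted p = 0.0336), stood well above background on 2 of the 3 young arrays, but turned to -0.59 with quantile normalization. Irs2, a docking protein of the insulin and IGF1 receptors, differed by 0.76 ± 0.25 SE (limma adjusted p = 0.0627), and Insrr, an orphan relative of the insulin receptor, by 4.09 ± 1.31 SE (limma adjusted p = 0.0596), with a signal well above background on 1 of 3 young arrays. Igf2, the other IGF ligand, differed by 0.25 ± 0.22 SE (limma adjusted p = 0.385).

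Brakes on receptor signalling included 3 of 7 tested genes lower in adult and 0 higher (limma; 4 of the 7 differences were negative). Grb10, an imprinted adaptor that inhibits the insulin and IGF1 receptors, read 4.46, 4.19 and 4.15 in young and 3.12, 3.01 and 3.48 in adult, 2.09-fold down (-1.06 ± 0.21 SE on the log2 scale, limma adjusted p = 0.0263). The receptor phosphatase gene Ptprf fell by 1.14 ± 0.29 SE and the phosphatase gene Ptpn1 by 1.13 ± 0.30 SE (limma adjusted p = 0.0378 and 0.0408), although a second Ptpn1 probe differed by 0.01. These 3 passed with quantile normalization and with median scaling as well. Socs3, an inhibitor of cytokine and insulin signalling, differed by 0.53 ± 0.30 SE (limma adjusted p = 0.202).

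Among carriers and proteases of the binding proteins, 2 of 9 tested genes were higher in adult and 0 lower (limma). Pappa, which encodes the protease PAPP-A that cuts IGFBP4 and IGFBP5 and so frees IGF, read -0.15, -0.43 and -0.71 in young and 0.60, 0.46 and 0.44 in adult. All adult samples lay above all young ones, 1.90-fold higher (log2 difference 0.93 ± 0.21 SE, limma adjusted p = 0.0313), and the call was kept with quantile normalization but not with median scaling (0.39, limma adjusted p = 0.203). Igfbpl1, a gene related to the binding proteins, rose by 2.33 ± 0.36 SE (limma adjusted p = 0.0197) from a dim signal, present above background on 2 of the 3 young arrays, and did not pass with quantile normalization (limma adjusted p = 0.125). The protease genes Htra1 and Htra3 differed by -0.71 ± 0.21 SE and -0.47 ± 0.20 SE (limma adjusted p = 0.0520 and 0.111). Of the Igf2 mRNA-binding proteins, Igf2bp2 differed by 0.95 ± 0.44 SE and Igf2bp3 by -0.02 ± 0.34 SE (limma adjusted p = 0.137 and 0.958).

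In the PI3-kinase and Akt arm, 4 of 19 tested genes were lower, 0 were higher (limma) and 16 of the 19 differences were negative. The kinase genes Akt1 and Akt2 fell by 1.11 ± 0.21 SE and 0.62 ± 0.17 SE (limma adjusted p = 0.0247 and 0.0449). Inppl1, which encodes the lipid phosphatase SHIP2, fell by 1.48 ± 0.28 SE and Foxo4, a forkhead factor held in check by Akt, by 1.09 ± 0.31 SE (limma adjusted p = 0.0249 and 0.0480). Akt2 did not pass with quantile normalization (limma adjusted p = 0.112). The median of the list was -0.31, against 0.31 over all genes (8.43% lower) and -0.05 over those with a symbol (12.3% lower). In the brightest of 4 classes of probes by mean level, the median was -0.33 and 15.2% were lower. Whether this list differs from genes of like brightness was not tested.

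**Figure D4:**
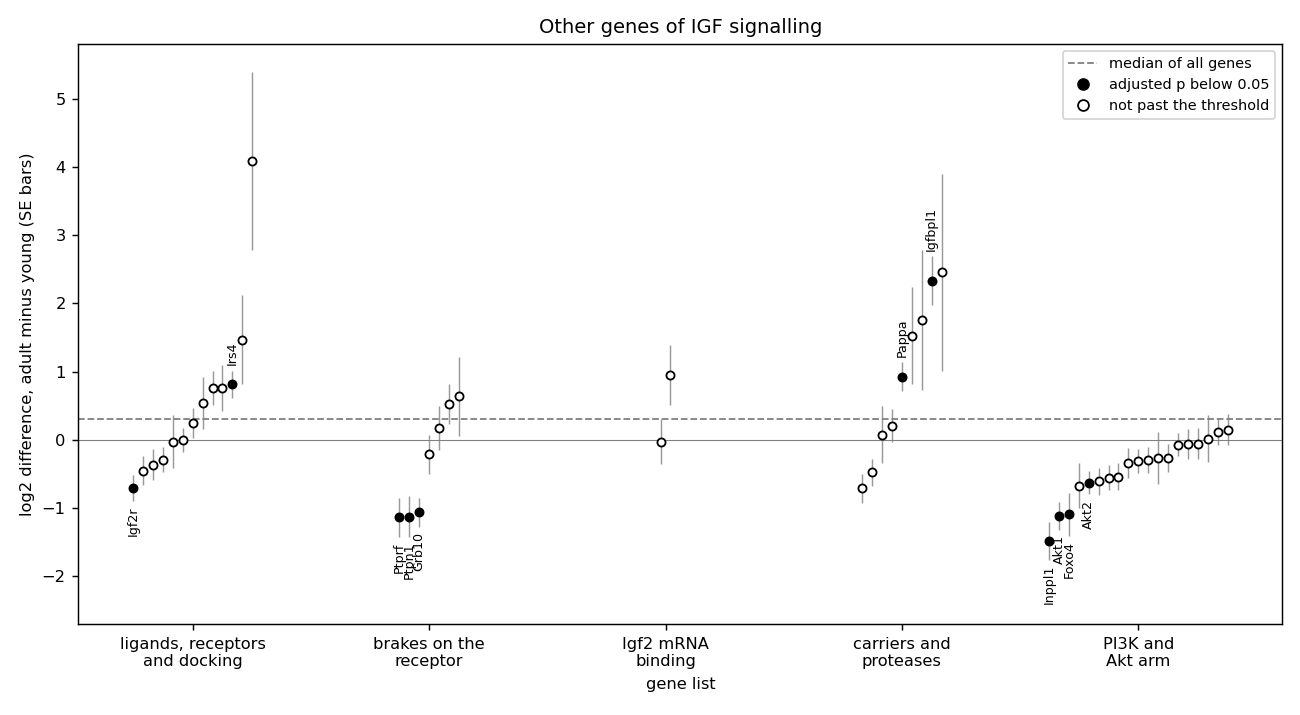
Log2 difference, adult minus young, with SE bars, of 50 other genes of IGF signalling in 5 lists (1 probe a gene, 3 samples a group); filled and named points passed at an adjusted p below 0.05 and the dashed line is the median of all genes. Of the 11 filled points, 8 lie below 0.

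The genes most like each member were those with the smallest root mean square difference between centred log2 profiles over the 6 arrays, among 13438 named genes above background on all arrays. For Igf1 probe 2 these were Psma5 (0.09) and Atp2a3 (0.10), for Igf1r Pwp2 (0.04) and Rfwd3 (0.05), and for Igfbp3 Slc22a3 (0.07) and Ola1 (0.19). None is given for Igfbp1, whose young values were not above background.

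Over the whole series, a young array had 41528 to 45926 probes well above background and an adult array 47554 to 49957. Correlations across probes were 0.938 to 0.952 within groups and 0.837 to 0.924 between groups. All 6 arrays lay on 1 slide with 1 scan time. Dim probes rose and bright ones fell in general: the median difference was 1.38 in the dimmest 25% of probes and -0.33 in the brightest 25%, where 23.7% were called, 15.2% lower. In the class of Igfbp3, the second dimmest, 22% were called, 2.31% lower. Igf1 probes 2, 3 and 4 belong to that brightest class, and probe 5 to the next, where 20.1% were called, 7.33% lower, and the median was -0.01.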

How the data were processed

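Per the labels' protocols, satellite cell RNA went through whole transcriptome amplification and took a Cy3 label. Per the file headers, Feature Extraction 10.7.3.1 gave the authors' intensity values: processed (background-subtracted and detrended) and mean spot signals, and local background. The deposited log2 values of the series matrix, for which no label names a method, differed by at most 0.000106 from normexp (offset 50) with quantile normalization of the mean signals, which settles their scale, centring and direction. The median was 7.56 in each column.

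Control spots (3671 of 62976) and outlier spots were left out, spots of 1 probe were averaged as log2, and each array's 75th percentile was subtracted. A probe counted as well above background on an array where at least 50% of its spots did. Probes that did so on 3 arrays or more were tested with limma 3.58.1 in R 4.3.3 (lmFit, eBayes, Benjamini-Hochberg over 48412 probes, threshold 0.05). The fit was tested on simulated data. The number of arrays limits the precision. The replicate numbers carry no pairing: between same-numbered samples, deviations from the group means had correlations of -0.01, -0.09 and -0.13.

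The members, gene lists and tests were chosen with earlier results of these data known. All member probes were named, with up to 4 genes of smallest p from each list (up to 6 that passed) and the 2 genes most like each of Igf1, Igf1r and the binding proteins that passed, other than Igfbp1. Marker genes were named after their values were seen. Igf2 was named beside these after its value was seen. Alternatives covered scaling, background correction, the filter, the variance model, array weights, blocks, 1 probe a gene and leaving out each array.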

Additional observations from a re-analysis of the deposited data

How the results depend on the processing

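Over the member probes no call changed direction under any alternative. Over all probes, 7074 were called with quantile normalization (3277 higher), 17034 with median scaling (4820 higher, 12214 lower) and 6311 with cyclic loess (3493 higher). Lower calls numbered 2012 when the percentile was taken over probes above background on every array, 6068 with normexp or the series matrix, and 5998 with a trended robust variance. With array row on the slide as a block there were 6544 calls (5489 higher, 1055 lower). Of the members, 8 probes were lower with median scaling, and 0 were higher with normexp or the series matrix values (limma, 7 of 14 at an unadjusted p under 0.05) or with only probes above background on all arrays, where Igfbp1 is not tested (6 of 12). With 1 probe a gene 3 of 9 members passed, 2 of them lower and the other Igfbp1, which was tested through the adult arrays alone. Of all genes 28.5% passed (8.43% lower), and of those with a symbol 26.7% (12.3% lower). Igf1 probe 4 did not pass with cyclic loess (-1.11) or the array row block (-1.17). Median scaling gave 22 calls among the other genes of IGF signalling. What causes these changes was not tested. The median of all probes was 0.29 in the reported fit, -0.12 with quantile normalization and -0.25 with median scaling. With the replicate block limma called 0 probes, 0 higher and 0 lower (18048 at an unadjusted p under 0.05), 0 members, 0 higher and 0 lower (7 of 14), and 0 of the other IGF genes (14), though the numbers do not pair the samples. Leaving out 1 array, with fewer samples in each fit, gave 388 to 10344 calls (361 to 8923 higher, 27 to 1421 lower), 1 to 6 members (1 higher each time, 0 to 5 lower, with 6 to 9 at an unadjusted p under 0.05) and 0 to 5 of the other IGF genes. Signal over background limits Igfbp1 and Igfbp2 probe 2.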
